A study of Mus musculus with 2 samples.

Results

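The set described here holds 10 transcripts, of 32285 genes in the files, that were near zero in WT adipocyte nuclei and well counted in SRSF1-KO adipocyte nuclei. They were selected on the measured UMI counts of these same 2 libraries, so the difference between KO and WT adipocytes is a description of how they were chosen and not a finding. By role they fall into 4 protein-coding genes and 6 noncoding RNAs. The coding genes are Hsh2d, which encodes an SH2-domain adaptor protein known from blood cells, Olfm2, which encodes a secreted olfactomedin glycoprotein, Mreg (melanoregulin), known for the placement of melanosomes and other organelles, and Marc1, which encodes a molybdenum-containing reductase of the outer mitochondrial membrane. The noncoding RNAs are Gm38575, Gm47343, Gm12022, Gm31522, Gm42047 and 9330179D12Rik, the last of which lies antisense to Ccnd2.

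The study compared nuclei of interscapular brown adipose tissue (BAT) by single-nucleus RNA-seq (snRNA-seq), where RNA molecules are tagged with unique molecular identifiers and counted by them (UMIs). There was 1 library of WT littermates (Srsf1 flox/flox, no Cre) and 1 of KO mice (Adipoq-Cre; Srsf1 flox/flox), so both groups carried the floxed alleles. The mice were males of 8 weeks. The Adipoq promoter drives Cre in adipocytes and leaves the other cell types of the tissue without recombination by design, and the number of mice behind a library is not given in the sources used here. With 1 library per genotype, no test or replicate error could be given, every difference between genotypes is also one between 2 libraries, and the 95% intervals below are exact and cover counting error only.

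SRSF1 is an SR protein that binds exonic enhancers in pre-mRNA and steers the choice of splice sites. Brown adipocytes are rich in mitochondria and burn fuel to make heat through the uncoupling protein UCP1, whereas white adipocytes store lipid and secrete leptin. Slc7a10, an amino acid transporter of the plasma membrane, is known as a gene of white adipocytes. Long noncoding RNAs are transcribed and often spliced like messenger RNAs but encode no known protein, and many are found in few cell types.

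Annotated sequences at the starts or ends of 7 of the genes are given to identify them, and do not show where the counted reads lay. Promoters, from 250 bases before to 50 after a transcription start, were taken from RefSeq (GRCm38.p6), which held windows for 7 of the 10 genes. Those of the 2 genes with a single UMI in WT adipocytes and of 2 coding genes that moved differently with Slc7a10 in KO are given, 5′ to 3′, with matches on either strand to a set of 8 short motifs in capitals.
Gm12022 promoter, chr11:18493217-18493516, minus strand: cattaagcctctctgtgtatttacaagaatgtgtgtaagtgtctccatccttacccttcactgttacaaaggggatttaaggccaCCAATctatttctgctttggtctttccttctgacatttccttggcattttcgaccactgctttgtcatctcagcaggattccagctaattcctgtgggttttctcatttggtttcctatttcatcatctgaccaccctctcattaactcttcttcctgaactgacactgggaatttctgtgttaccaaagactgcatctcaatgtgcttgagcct
Hsh2d promoter, chr8:72189418-72189717, plus strand: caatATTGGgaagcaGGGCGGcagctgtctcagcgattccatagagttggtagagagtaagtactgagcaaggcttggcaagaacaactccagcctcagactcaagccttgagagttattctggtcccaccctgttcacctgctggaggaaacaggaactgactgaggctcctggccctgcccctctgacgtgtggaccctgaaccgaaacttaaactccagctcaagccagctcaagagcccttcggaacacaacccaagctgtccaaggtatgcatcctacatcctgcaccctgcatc
Olfm2 promoter, chr9:20726954-20727253, minus strand: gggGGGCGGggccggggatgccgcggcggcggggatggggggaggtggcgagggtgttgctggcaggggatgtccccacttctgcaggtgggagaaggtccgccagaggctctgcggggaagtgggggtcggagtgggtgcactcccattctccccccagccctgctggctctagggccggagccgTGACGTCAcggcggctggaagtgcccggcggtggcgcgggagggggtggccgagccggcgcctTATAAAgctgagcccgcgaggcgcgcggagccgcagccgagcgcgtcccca
Mreg promoter, chr1:72212258-72212557, minus strand: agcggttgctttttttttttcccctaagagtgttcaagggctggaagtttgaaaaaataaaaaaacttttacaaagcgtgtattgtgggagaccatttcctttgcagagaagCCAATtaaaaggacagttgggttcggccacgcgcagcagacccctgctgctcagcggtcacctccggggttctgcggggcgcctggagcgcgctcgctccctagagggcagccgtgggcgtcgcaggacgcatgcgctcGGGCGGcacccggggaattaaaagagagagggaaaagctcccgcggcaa
Gm38575, Gm47343 and Gm42047 had no RefSeq window, and the last 120 bases of the longest GENCODE M21 transcript of each are given instead, since the 3′ kit primes from poly(A). The hexamer AATAAA, searched in the printed strand, was in none of the 3, and 25.7% of 29435 noncoding transcripts held it in their last 120 bases.
Gm38575 transcript end, chr10:85229048-85229167, minus strand: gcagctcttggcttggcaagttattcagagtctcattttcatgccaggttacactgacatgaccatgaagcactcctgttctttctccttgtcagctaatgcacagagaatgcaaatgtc
Gm47343 transcript end, chr10:78972103-78972222, minus strand: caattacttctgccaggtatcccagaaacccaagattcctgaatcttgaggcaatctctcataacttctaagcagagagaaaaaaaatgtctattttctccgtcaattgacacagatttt
Gm42047 transcript end, chr8:121841059-121841178, plus strand: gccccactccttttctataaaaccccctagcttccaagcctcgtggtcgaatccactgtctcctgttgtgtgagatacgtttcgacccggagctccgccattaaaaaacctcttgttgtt

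The 7 genes had 11 promoter windows in all, searched on both strands. CCAAT was in 4 of the 11 windows, of 3 genes (Gm12022, Hsh2d and Mreg), and in 37.4% of all 32851 promoter windows. GGGCGG was in 6 of 11, of 4 genes (Hsh2d, Olfm2, Mreg and Marc1), and in 35.7% of all windows, with copies that overlap one another in a further Olfm2 window. The Mreg windows overlap and hold the same CCAAT and GGGCGG sites, which are counted in each window. TATAAA was in 2 of 11 (Gm31522 and Olfm2) against 13.6% of all windows. TGACGTCA, the full cAMP response element, was in 1 of 11 (Olfm2) against 1.79%. CACGTG (7.15% of all windows), TTGCATCA (0.895%), TGAGTCA (5.20%) and the nuclear receptor element DR1 (0.0396%) were in none of these windows. A match is a run of letters and not a bound site. The RefSeq start of Gm31522 lies inside the GENCODE gene, 32812 bases downstream of the GENCODE start. The printed Olfm2 window is 1 of 3 for that gene, and its start lies 19346 bases downstream of the GENCODE start.

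The WT library held 93102814 UMIs in 12846 barcodes and the KO library 80090208 in 11495, and 52 barcode sequences occurred in both. After filters, 12771 and 11378 nuclei fell into 24 clusters, of which 4024 WT nuclei (median 6971 UMIs) and 2045 KO nuclei (median 6068 UMIs) were adipocyte-like by their markers. WT adipocytes lay in clusters 0 and 4 (306 and 3711 WT nuclei) and KO adipocytes in cluster 22 (2043 KO and 7 WT nuclei), so different clusters stand behind the levels compared. The 10 adipocyte markers summed to 15818 CPM (UMIs in 1000000 of the class) in WT and 16339 in KO, although brown adipocyte genes were lower in KO. Single markers moved within this sum. Of the 10, 1 was at least 2-fold higher in KO (Plin4, 373 to 2649 CPM) and 1 at least 2-fold lower (Pparg, 5290 to 2637 CPM). The targeted gene Srsf1 had 5987 UMIs (188 CPM) in WT and 883 (60.1 CPM) in KO adipocytes, a log2 ratio of -1.64 (-1.75 to -1.54). Median mitochondrial UMIs per nucleus were 1.10% in WT and 0.0491% in KO, and with mitochondrial genes left out of the totals the summed log2 ratio of the 10 in KO over WT adipocytes was 5.77 against 5.78.

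The noncoding RNAs came from 0 to 73 UMIs in WT adipocytes and 345 to 2308 in KO. Gm38575 (ENSMUSG00000111752, chr10:85220942-85266392, a processed transcript of up to 3 exons) had 0 UMIs in 4024 WT nuclei and 982 UMIs, or 66.8 CPM (62.7 to 71.1), in 2045 KO nuclei. Against the 3 counts that 0 UMIs allow in the WT adipocytes, it was at least 711-fold higher in KO, the highest of 14387 genes ranked. Gm47343 (ENSMUSG00000112732, chr10:78972103-79012892, 2 exons) also had 0 UMIs in WT and 345, or 23.5 CPM (21.1 to 26.1), in KO, at least 250-fold more. It overlaps the olfactory receptor genes Olfr1351 and Olfr1352 on the other strand, which had 0 WT and 18 KO and 0 WT and 3 KO UMIs. Gm12022 (ENSMUSG00000085675, chr11:18467479-18493255, 2 exons) had 1 UMI in WT and 410, or 27.9 CPM (25.3 to 30.7), in KO, with a log2 ratio as counted of 9.80 (7.31 to 15.11). These 3 RNAs were thus all but uncounted in 31907662 UMIs of WT adipocytes.

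Gm31522, Gm42047 and 9330179D12Rik were counted at a low level in WT. Gm31522 (ENSMUSG00000109297, chr11:81983119-82019967, 6 exons) went from 35 UMIs, or 1.10 CPM (0.764 to 1.53), in WT to 1926, or 131 CPM (125 to 137), in KO, a log2 ratio of 6.90 (6.42 to 7.43). Gm42047 (ENSMUSG00000110631, chr8:121833247-121841178, up to 4 exons) went from 73 UMIs, or 2.29 CPM (1.79 to 2.88), to 2308, or 157 CPM (151 to 164), a log2 ratio of 6.10 (5.76 to 6.46). 9330179D12Rik (ENSMUSG00000097166, chr6:127149389-127212411, up to 3 exons) went from 34 UMIs, or 1.07 CPM (0.738 to 1.49), to 1203, or 81.9 CPM (77.3 to 86.6), a log2 ratio of 6.26 (5.77 to 6.80). It overlaps Ccnd2, a cyclin of the G1 phase, on the other strand, and Ccnd2 went from 299 to 670 UMIs (9.37 to 45.6 CPM). Whether counting used strand is not stated in the sources used here, so reads from the shared stretch cannot be assigned with certainty.

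Among the coding genes, Hsh2d (ENSMUSG00000062007, chr8:72189638-72201527, up to 6 exons) had 1 UMI in WT and 641, or 43.6 CPM (40.3 to 47.1), in KO, with a log2 ratio as counted of 10.44 (7.96 to 15.75). Mreg (ENSMUSG00000039395, chr1:72159442-72212307, 5 exons) had 67 UMIs, or 2.10 CPM (1.63 to 2.67), in WT and 1602, or 109 CPM (104 to 114), in KO, a log2 ratio of 5.70 (5.35 to 6.07). Olfm2 (ENSMUSG00000032172, chr9:20667690-20746349, up to 6 exons) had 41 UMIs, or 1.28 CPM (0.922 to 1.74), in WT and 1036, or 70.5 CPM (66.3 to 74.9), in KO, a log2 ratio of 5.78 (5.33 to 6.27). Marc1 (ENSMUSG00000026621, chr1:184786767-184811313, up to 9 exons, now named Mtarc1 in RefSeq) was the best counted in WT, with 252 UMIs, or 7.90 CPM (6.95 to 8.94), against 2303, or 157 CPM (150 to 163), in KO. Its log2 ratio of 4.31 (4.12 to 4.50) was the smallest of the set, at rank 249 of 14387 genes. No interval in WT met the interval of the same gene in KO, which follows from how the genes were chosen.

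**Figure D1:**
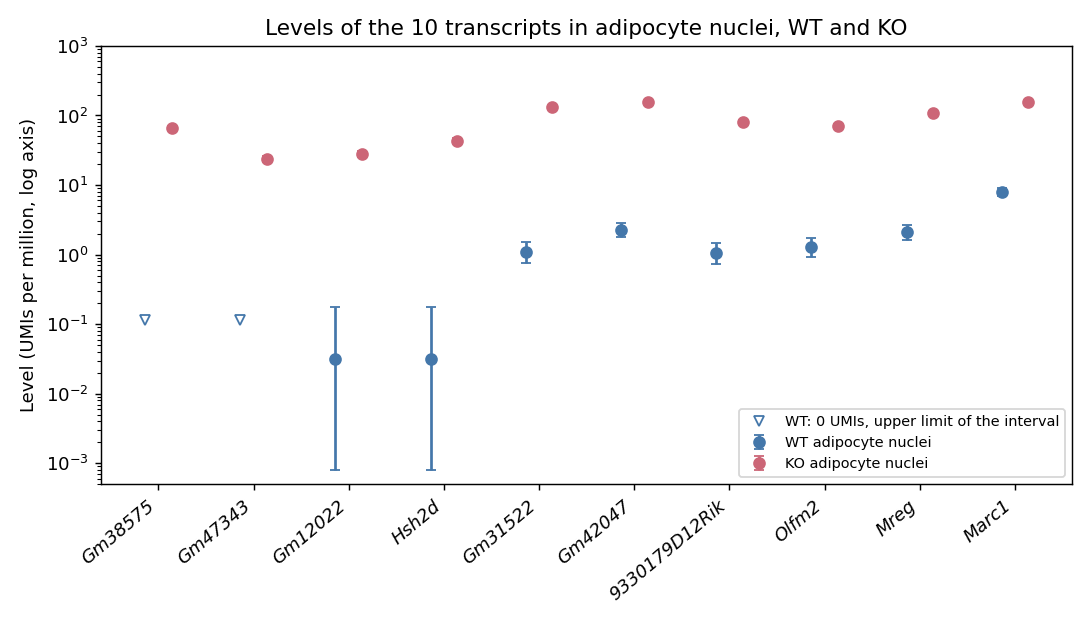
Level of each of the 10 transcripts in CPM (log axis) over 4024 WT (blue) and 2045 KO (red) adipocyte nuclei, 1 library each, where bars are exact 95% Poisson intervals of the counts and open triangles mark the upper limit of the interval for 0 UMIs. All KO values lie between 23.5 and 157 CPM and all WT values at or below 7.90 CPM, which is how the genes were chosen.

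All 10 were at least 8-fold higher in KO adipocytes with counts under 3 raised to 3, a size that 3.97% of 14387 genes with at least 50 UMIs over both libraries reached, and nothing is read from this count because the same contrast chose the set. All 10 were also at least 2-fold higher, as were 20.8% of all genes, and 0 of 10 were at least 2-fold lower, as were 17.0%. The median log2 ratio was 6.58 over the set and 0.10 over all genes. Summed over the set, the level was 15.8 CPM in WT and 868 CPM in KO. After clustering, Gm31522, Gm47343, Marc1 and Hsh2d were among the 10 leading genes of cluster 22. With the 10 genes and Slc7a10 kept out of the variable genes, the summed log2 ratio of KO to WT was 5.81 against 5.78.

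The transcripts were spread over many KO adipocyte nuclei, each in its own manner. Without thinning, 9.22% of the WT and 90.7% of the KO adipocyte nuclei held a UMI of any of the 10. With every nucleus thinned to 1000 UMIs, which left out 24 WT and 15 KO nuclei, the share was 1.12% (45 of 4000 nuclei) in WT and 53.5% (51.3 to 55.7) in KO. In KO endothelial nuclei, which should lack Cre activity, it was 9.29% (7.71 to 11.1) after thinning, with 165 nuclei left out, and 19.5% before, at a median of 2061 UMIs. Single genes ranged in thinned KO adipocytes from 1.72% of nuclei for Gm47343 to 14.6% for Gm42047, and in thinned KO endothelial nuclei from 0 of 1217 nuclei for Gm47343, which allows a share of up to 0.247% (3 counts of the total), to 4.03% for Gm42047. Each of the 10 had a higher thinned share in KO adipocytes than in KO endothelial nuclei. The genes were chosen as well counted in KO adipocytes, which favours this order, so nothing is read from it.

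Patterns of counts per nucleus differed, and Hsh2d and Gm31522 stood at the ends of the range. Hsh2d was found as single molecules in many nuclei, with 641 UMIs in 489 KO adipocyte nuclei (23.9%), a mean of 1.31 UMIs per nucleus that had any, and 5 at most. Gm31522 was found in 481 nuclei (23.5%), nearly as many, yet held 1926 UMIs there, with 46 nuclei holding at least 10 and 1 nucleus holding 40. The other 8 had means of 1.91 to 2.52 UMIs. The 103 nuclei richest in a given transcript, 5% of KO adipocyte nuclei, held 55.9% of the Gm31522 UMIs, 49.9% of Gm38575, 49.3% of Olfm2 and 32.2% of Gm42047. For Gm47343 and Gm12022 these shares were 77.4% and 75.4%, in genes found in 181 and 204 nuclei. Counts in these patterns were not thinned, and the part that the depth of nuclei had in them was not tested.

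When KO adipocyte nuclei were split by Slc7a10, 1 of the 10 transcripts was at least 2-fold higher and 2 were at least 2-fold lower in positive nuclei. At least 2 Slc7a10 UMIs were found in 376 KO nuclei (18.4%, median 8538 UMIs) and fewer in 1669 (median 5665 UMIs), of which 1471 had 0 and 198 had 1, and 90 of the positive nuclei had exactly 2. Summed over the set, the level was 941 CPM in positive and 843 CPM in negative nuclei, a log2 ratio of 0.16. Gm31522 was the 1 transcript at least 2-fold higher with Slc7a10, a size reached by 4.56% of 11517 genes. Mreg and Gm38575 were the 2 at least 2-fold lower, a size reached by 5.33%. The median over the set was -0.17 and over all genes -0.11.

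Gm31522 had 982 UMIs, or 261 CPM (244 to 277), in Slc7a10-positive KO nuclei and 944, or 86.4 CPM (81.0 to 92.1), in negative ones, a log2 ratio of 1.59 (1.46 to 1.72). Thinned to 1000 UMIs it was found in 19.0% (15.1 to 23.3) of positive and 5.98% (4.89 to 7.23) of negative nuclei. Marc1 was also higher in positive nuclei, at 238 CPM against 129 CPM, a log2 ratio of 0.88 (0.76 to 1.01). Its paralogue Marc2 had a log2 ratio of 1.08 (0.89 to 1.28) in the same split. Mreg was lower in positive nuclei, at 51.2 CPM (44.2 to 59.0) against 129 CPM (122 to 136), a log2 ratio of -1.33 (-1.56 to -1.11). Gm38575 was lower as well, at 27.3 CPM (22.3 to 33.1) against 80.4 CPM (75.2 to 85.9), a log2 ratio of -1.56 (-1.87 to -1.26), and its thinned shares were 0.802% and 6.70% of nuclei.

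The remaining 6 transcripts moved less than 2-fold between positive and negative KO nuclei. Gm47343 had a log2 ratio of -0.77 (-1.20 to -0.36), which was -1.24 with fixed limits on nuclei and -1.07 as a mean over nuclei, so that 3 transcripts in place of 2 were at least 2-fold lower there. Intervals also lay below 0 for Hsh2d at -0.51 (-0.80 to -0.23) and Gm42047 at -0.32 (-0.46 to -0.17). The intervals of Gm12022 (0.19, -0.13 to 0.51), 9330179D12Rik (0.02, -0.17 to 0.21) and Olfm2 (-0.03, -0.24 to 0.18) held 0. Where nuclei were thinned to 3000 UMIs before the split, leaving 180 positive and 1588 negative nuclei, Olfm2 went to -0.76, Gm12022 to -0.45, Mreg to -2.07 and Gm31522 to 1.27. The 2 groups of nuclei differed in more than Slc7a10. Lep, the gene of leptin, was at 176 CPM in positive and 43.7 CPM in negative nuclei, Nnat at 219 and 16.5 CPM, and Ucp1 at 12.2 and 74.7 CPM. Of 5 white adipocyte genes, Slc7a10 itself among them, 4 were at least 2-fold higher (4.56% of all genes) and 0 lower. Of 7 counted brown adipocyte genes, 5 were at least 2-fold lower (5.33% of all genes) and 0 higher. Adrb3, of the brown list, went the other way at 0.42 (0.27 to 0.56).

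**Figure D2:**
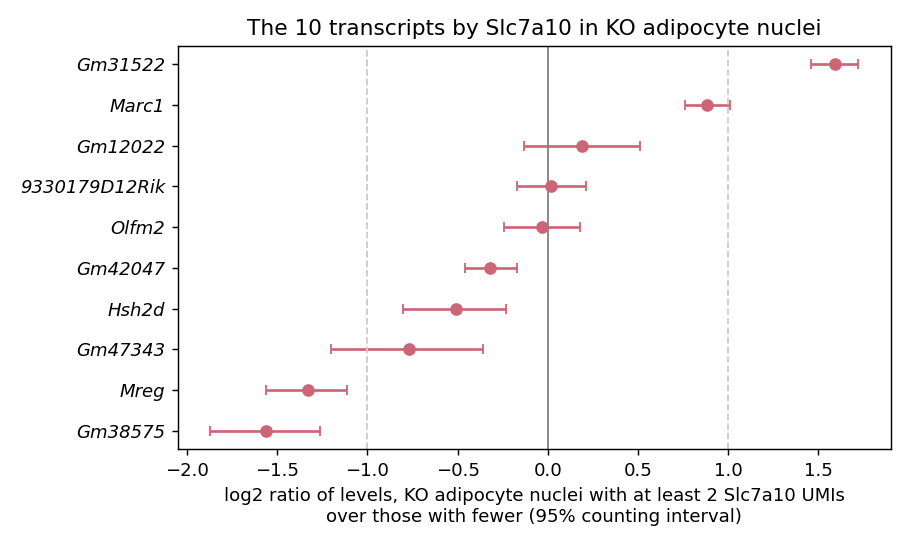
Log2 ratio of the level in 376 KO adipocyte nuclei with at least 2 Slc7a10 UMIs over that in 1669 with fewer, for each of the 10 transcripts, with exact 95% counting intervals and dashed lines at 2-fold. Gm31522 at 1.59 and Marc1 at 0.88 lie highest and Gm38575 at -1.56 and Mreg at -1.33 lowest.

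The few WT adipocyte counts were not spread evenly over the same split. In WT, 241 nuclei (5.99%) had at least 2 Slc7a10 UMIs and held 10.0% of all WT adipocyte UMIs. They held 28 of 35 Gm31522 UMIs (80.0%), 22 of 34 of 9330179D12Rik (64.7%) and 98 of 252 of Marc1 (38.9%). Gm42047 had 21 of 73 UMIs (28.8%) there and Olfm2 7 of 41 (17.1%). Mreg had 0 of 67, so that its level in positive nuclei was at least 2.48-fold lower, with 3 counts allowed for the 0. The log2 ratio of positive over negative WT nuclei was 5.17 (3.94 to 6.61) for Gm31522, 4.04 (2.97 to 5.19) for 9330179D12Rik and 2.52 (2.14 to 2.89) for Marc1. These levels were 8.77, 6.89 and 30.7 CPM in positive WT nuclei, below the 261, 82.8 and 238 CPM of positive KO nuclei. Gm31522, Marc1 and Mreg thus had the same direction with Slc7a10 in both libraries, while 9330179D12Rik stood at 4.04 in WT and 0.02 in KO. Gm42047 stood at 1.86 (1.06 to 2.62) in WT and -0.32 (-0.46 to -0.17) in KO, with intervals on opposite sides of 0. These differences between the libraries were not tested. The WT positive nuclei were deeper, at a median of 9930 against 6884 UMIs, and WT cluster 0, led by Nnat, held the summed set at 52.7 CPM against 10.7 CPM in WT cluster 4.

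Detection of the transcripts together is described pair by pair, and counts this sparse do not show whether detections were independent. In KO adipocyte nuclei thinned to 1000 UMIs, 15.6% (14.1 to 17.3) had UMIs of at least 2 of the 10, 2.66% of at least 3 and 0.148% of at least 4, with 5 at most. WT adipocytes had at least 2 in 0 of 4000 nuclei, which allows a share of up to 0.0750% by the same limit of 3 counts, and KO endothelial nuclei in 0.822% (0.395 to 1.51). Over the 45 pairs, the phi coefficient ran from -0.05 to 0.06 with a median of -0.01, with the second transcript found more often beside the first than without it in 18 pairs and less often in 27. Coefficients of this size in sparse counts are no finding, and the points share 1 library. The intervals lay apart for 1 pair, as Mreg was found in 16.7% (10.3 to 24.8) of the nuclei with Gm38575 and in 8.87% (7.64 to 10.2) of those without. At 2000 UMIs per nucleus the balance turned, with 31 pairs more often and 14 less often together and phi from -0.06 to 0.11 with a median of 0.01. The intervals of Mreg with and without Gm38575 then overlapped, at 19.9% (14.7 to 26.0) and 14.6% (13.0 to 16.4). At that depth Marc1 was found in 35.0% (29.0 to 41.4) of the nuclei with Gm31522 and 20.8% (18.9 to 22.8) of those without. Mreg was then found in 9.58% (6.17 to 14.0) of the nuclei with Gm31522 and in 270 of the 1687 without (14.3 to 17.8%). Marc1 was likewise less frequent with Mreg, at 16.4% (12.3 to 21.1) against 23.7% (21.6 to 25.8). Gm38575 and Mreg were both lower with Slc7a10, and Gm31522 and Marc1 both higher.

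**Figure D3:**
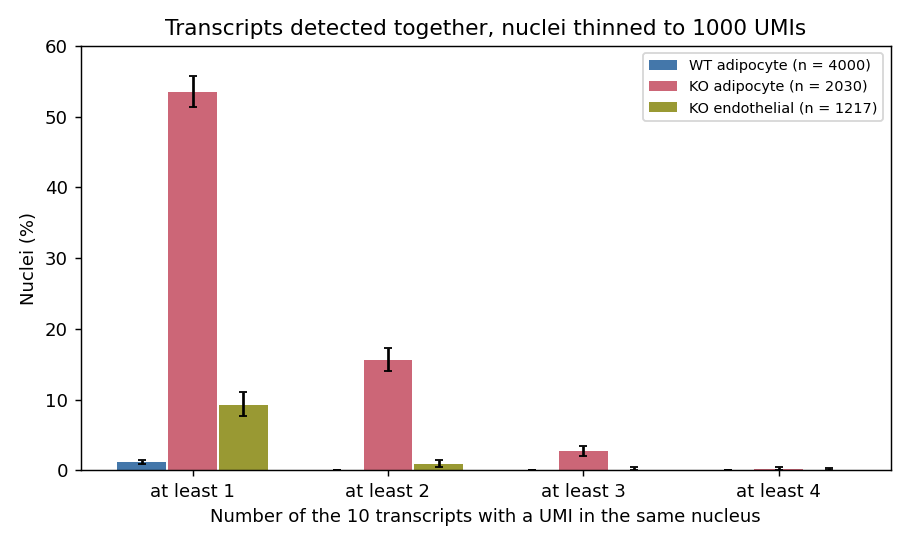
Share of nuclei (%) with UMIs of at least 1, 2, 3 or 4 of the 10 transcripts after thinning to 1000 UMIs, in WT adipocyte (blue), KO adipocyte (red) and KO endothelial (olive) nuclei, with exact 95% binomial intervals as bars. KO adipocytes fall from 53.5% for at least 1 to 15.6% for at least 2, against 9.29% and 0.822% in KO endothelial nuclei.

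Outside adipocytes, the KO library held the same transcripts at lower levels, with 2 exceptions. The choice of genes well counted in KO adipocytes favours this order. The summed set stood at 307 CPM in adipose stem and progenitor cells (ASPC) of KO, 183 in its endothelial, 297 in its immune and 309 in its mural nuclei, against 64.0, 20.1, 62.6 and 41.3 CPM in WT. Gm42047 alone made up 247 of the 297 CPM in KO and 49.8 of the 62.6 CPM in WT immune nuclei. Olfm2 made up 117 of the 307 CPM in KO ASPC. The 10 adipocyte markers were also counted in these classes, and how much of them the classes express themselves was not tested. In KO endothelial nuclei the 10 markers stood at 17.4% (Plin4) to 81.6% (Pparg) of their KO adipocyte level with a median of 22.2%, and the 10 transcripts at 8.82% (Gm47343) to 36.7% (Gm42047). Gm38575 stood at 21.9% of its adipocyte level in ASPC, 20.9% in endothelial, 20.3% in mural and 9.97% in immune nuclei, where the marker medians were 20.7%, 22.2%, 29.5% and 8.10%. Gm31522 stood below all 10 markers in each of these 4 classes, at 13.0%, 10.5%, 18.4% and 3.64%, and so did Gm47343, at 11.0%, 8.82%, 12.8% and 3.39%. Gm47343 rested on few UMIs, with 6 in mural and 13 in immune nuclei. Its intervals there (4.71 to 27.9% and 1.80 to 5.79%) reached past the lowest markers (22.6% and 4.62%). So did that of Gm31522 in mural nuclei (13.5 to 24.4%). In endothelial nuclei the interval of Gm47343 (3.81 to 17.4%) ended at the lowest marker (17.4%). The part of RNA from broken nuclei and of doublets in these levels was not tested, and removing the top 10% of doublet scores took the summed set in KO endothelial nuclei from a log2 ratio to adipocytes of -2.25 to -3.22.

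Olfm2 and Gm42047 were the exceptions, each above its KO adipocyte level in another class. Olfm2 had 117 CPM in KO ASPC, 166% (157 to 175) of its KO adipocyte level and above all 10 markers, and 94.7% (79.3 to 112) in KO mural nuclei. In WT it was already counted there, at 19.9 CPM in ASPC and 9.84 CPM in mural nuclei against 1.28 CPM in adipocytes. Gm42047 had 247 CPM in KO immune nuclei, 157% (152 to 162) of its KO adipocyte level, where the adipocyte markers reached at most 26.0%. In WT immune nuclei it had 49.8 CPM (43.1 to 57.2) against 2.29 CPM in WT adipocytes. In the KO cluster of Mmp12 and Atp6v0d2 macrophages, it was at 81.9 CPM. Thinned to 1000 UMIs, Gm42047 was found in 14.0% of KO and 5.19% of WT immune nuclei. Gm42047 and 9330179D12Rik also stood above all 10 markers in KO ASPC, where the highest marker was at 33.1%. They were at 40.0% (37.2 to 43.0) and 38.3% (34.5 to 42.4) of their adipocyte levels. In WT ASPC, 9330179D12Rik had 9.43 CPM against 1.07 CPM in WT adipocytes. Gm12022 had 26 UMIs (3.72 CPM) in WT ASPC and 5.77 CPM in KO ASPC, a log2 ratio of 0.63 (-0.03 to 1.35).

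**Figure D4:**
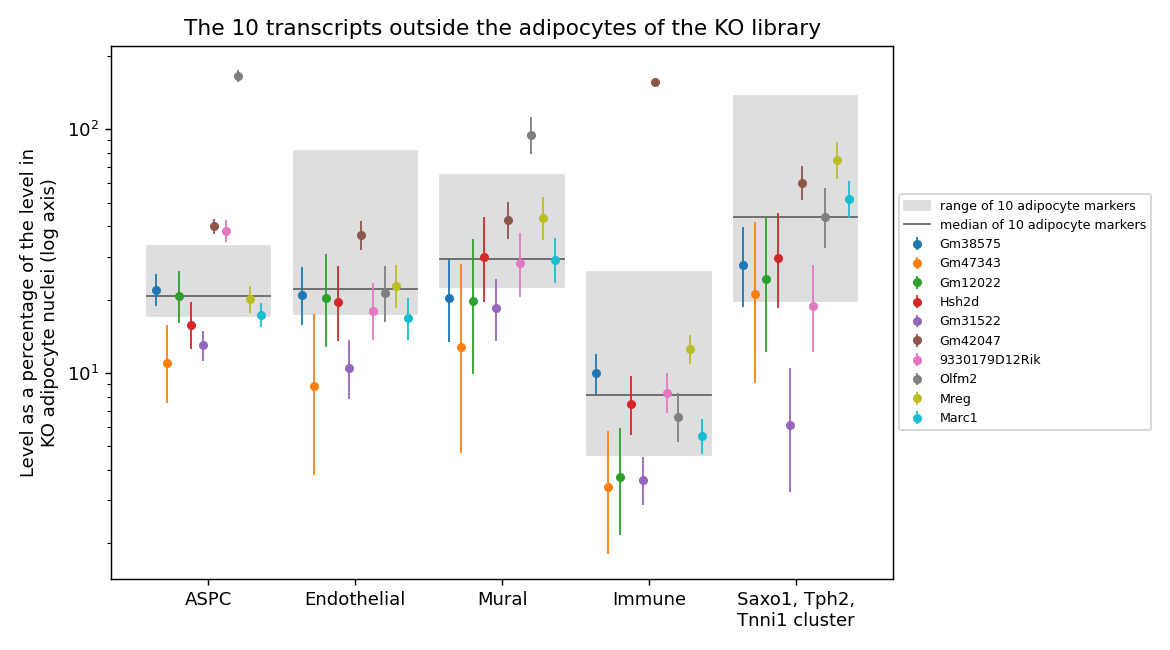
Level of each of the 10 transcripts in other classes of the KO library as a percentage of its level in KO adipocyte nuclei (log axis), with exact 95% counting intervals, beside the range (grey band) and median (line) of 10 adipocyte markers on the same scale. Olfm2 in ASPC at 166% and Gm42047 in immune nuclei at 157% lie far above the bands, and Gm31522 and Gm47343 lie below them in ASPC, endothelial, mural and immune nuclei. Some intervals of Gm31522 and Gm47343 reach into the bands.

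Several of the 10 were also higher in KO than in WT outside adipocytes, in contrasts that share the 2 libraries with the one that chose them. Of those with at least 50 UMIs over both libraries, 5 of 7 were at least 8-fold higher in KO endothelial nuclei (0.241% of all genes), 3 of 9 in ASPC (0.323%), 3 of 6 in mural (0.231%) and 1 of 8 in immune nuclei (0.464%). Nothing is read from these counts, since genes chosen as high in KO could pass the minimum through their KO UMIs. Gm31522 did so in endothelial nuclei with 4 UMIs in WT and 53 in KO, and Hsh2d in ASPC with 0 and 82. Mreg, for example, was at 2.12 CPM in WT and 24.8 CPM in KO endothelial nuclei, a log2 ratio of 3.55 (2.97 to 4.17), and at 2.52 and 47.2 CPM in mural nuclei. Gm38575 had 1 UMI in WT and 54 in KO endothelial nuclei, and 0 and 109 in immune nuclei. Adipocyte markers stood at a median of 59.3% of their adipocyte level in WT endothelial nuclei and 22.2% in KO ones, and the part of adipocyte RNA in these differences was not tested.

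A cluster of 897 KO nuclei led by Saxo1, Tnni1 and Tph2, with a median of 805 UMIs, was left unnamed. It held the summed set at 355 CPM, with Mreg at 81.5 CPM (74.8% of the KO adipocyte level), Marc1 at 80.9 CPM and Gm31522 at 8.03 CPM (6.12%). Counting these nuclei with the KO adipocytes, a choice made after the data had been seen, gave a share with any transcript of 50.5% after thinning, in which 310 of the 897 nuclei had the 1000 UMIs needed and entered. A cluster of 1137 KO nuclei with a median of 13175 UMIs, 88.7% of them called doublets, held 481 CPM and was left unnamed too.

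The genes beside the 10 differed from locus to locus. Of 24 genes that overlap one of the 10 or lie nearest on either side in GENCODE M21, 11 had at least 50 UMIs in adipocytes of both libraries together, and their median log2 ratio of KO to WT was 0.65. Of these, 3 were at least 8-fold higher in KO (3.97% of all genes), 5 at least 2-fold higher (20.8%) and 0 at least 2-fold lower (17.0%). Gm31522 lay between 2 of the 3. Asic2, an acid-sensing ion channel gene 14.7 kb away on the same strand, had 14 UMIs in WT and 699 in KO adipocytes, a log2 ratio of 6.76. Gm17268, 8.26 kb away on the other side and on the same strand, had 50 and 1031 UMIs, a log2 ratio of 5.48 (5.07 to 5.92). The 3 genes lie on 1 strand, and counts per gene do not show where their transcription began.

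Col5a3, a fibrillar collagen gene 23.7 kb from Olfm2 on the same strand, had 397 UMIs in WT and 5037 in KO adipocytes (12.4 and 343 CPM), a log2 ratio of 4.78 (4.64 to 4.93). Marc2, which lies 1.75 kb from Marc1 on the same strand and encodes the sister enzyme, had 51.7 CPM in WT and 60.6 CPM in KO, a log2 ratio of 0.23 (0.11 to 0.35). Rab8a, 5.73 kb from Hsh2d, stood at 0.65 (0.43 to 0.86), and Cib3, on its other side, had 1 UMI in WT and 48 in KO. Cry1 and Btbd11 beside Gm38575 stood at 0.14 (-0.08 to 0.35) and 2.09 (1.63 to 2.57), Klhdc4 beside Gm42047 at 0.59 (0.31 to 0.87) and Pecr beside Mreg at -0.49 (-0.77 to -0.21). Both genes beside Gm12022 had 5 UMIs or fewer in each library.

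**Figure D5:**
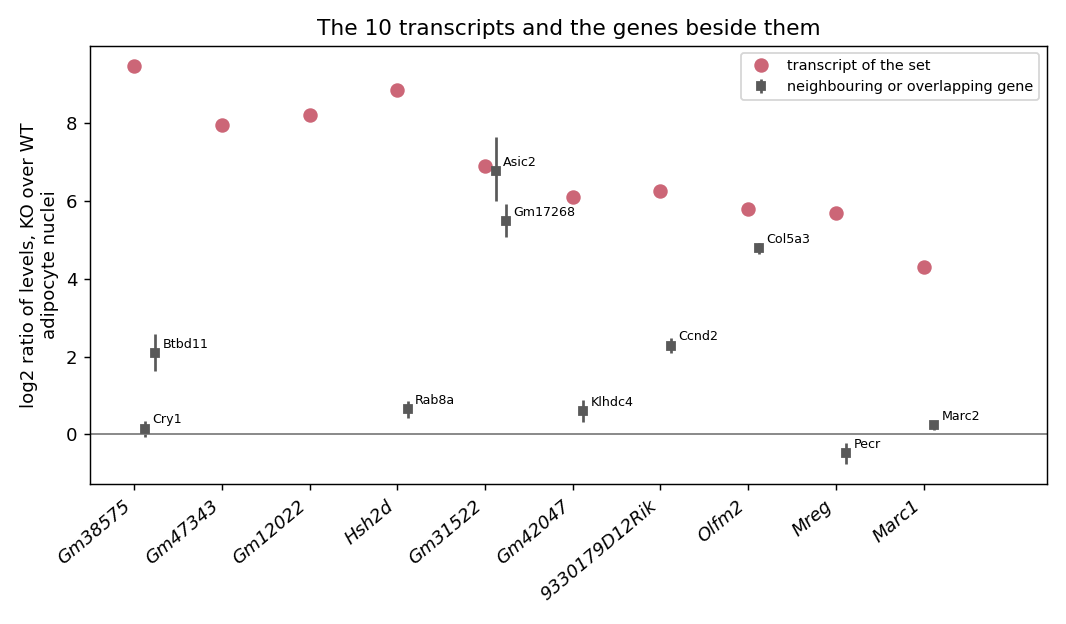
Log2 ratio of levels in KO over WT adipocyte nuclei for each of the 10 transcripts (red circles, counts under 3 raised to 3) and for the 10 neighbouring or overlapping genes with at least 50 UMIs that are named in the text (grey squares with exact 95% counting intervals). Asic2 at 6.76, Gm17268 at 5.48 and Col5a3 at 4.78 approach the transcript they lie beside, whereas Marc2 at 0.23 and Cry1 at 0.14 stay near 0.

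Genes related by function or family were listed with results of these data known and are given by their counts. Of 10 counted genes of the mARC and molybdenum cofactor system, 1 was at least 2-fold higher in KO adipocytes and 0 lower, with a median log2 ratio of 0.32, and the 1 was Xdh, the xanthine dehydrogenase gene, at 3.21 (3.15 to 3.26). Of 7 counted melanosome and organelle transport genes, 4 were higher, among them Rab32 at 2.44 (1.94 to 2.97) and Myo5a, the myosin V motor, at 1.27 (1.20 to 1.33), and 1 was lower, Rilp at -2.14 (-2.49 to -1.80). Of 4 olfactomedin family genes, 2 were higher, Olfm1 at 3.24 (2.67 to 3.85) and Olfml1 at 1.07 (0.69 to 1.45), and 2 lower. Of 5 counted SH2 domain genes, 1 was higher, Sh2d6, with 2 UMIs in WT and 122 in KO, and 2 were lower. The background is the same 20.8% higher and 17.0% lower of all genes.

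Stress response genes, of which many are known targets of ATF4, had 13 of 18 counted genes at least 2-fold higher in KO adipocytes and 1 lower, with a median log2 ratio of 1.75, in a list drawn up in the same way. Gdf15, a secreted stress signal, stood at 6.22 (5.46 to 7.11) and Trib3, a pseudokinase of the same response, at 5.74 (5.29 to 6.23), within the range of the 10 transcripts. Atf4 itself stood at -0.49 (-0.62 to -0.36) and Ddit4 at -2.08 (-2.77 to -1.46). All 9 brown adipocyte genes were at least 2-fold lower, with a median of -3.39, from Dio2, the deiodinase that activates thyroid hormone, at -8.97 (-9.75 to -8.30) to Cpt1b at -1.03 (-1.09 to -0.97). Of 5 white adipocyte genes, 3 were higher (Lep, Npr3 and Slc7a10, the last at 1.54 with 1.46 to 1.63) and 1, Nnat, was lower.

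Of 14468 genes that are not in the set and had at least 200 UMIs, 5 had a profile over 6 classes (adipocyte, ASPC, endothelial, immune, mural and Schwann) in both libraries most like the mean of the 10, by the Pearson correlation of log2(CPM + 1) over 12 points of class and library. They were Lhfpl2 (r of 0.983), Olfr1392 and Gm4756 (both 0.981), and Fbxw10 and Olfr10 (both 0.979). Lhfpl2 had 897 UMIs (28.1 CPM) in WT and 9083 (618 CPM) in KO adipocytes, and Fbxw10 had 40 and 1044. The olfactory receptor genes Olfr10 and Olfr1392 had 0 and 2 UMIs in WT and 258 and 267 in KO. Skeletal muscle, with 29 WT and 19 KO nuclei, was left out. The 12 points come from 2 libraries and carry no p-value.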

How the data were processed

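Nuclei of BAT from 1 WT and 1 KO library were measured with 10x 3′ snRNA-seq. The deposited values are raw counts of UMIs for each gene and barcode on GRCm38 (mm10), which the authors made with Cell Ranger (version 5.0.0 per the file headers and the submitters' processing notes) and did not normalize. The notes also name Seurat 3.1.1. The use of intronic reads is not given in the sources used here. The transcripts, gene lists and motifs were chosen with earlier results of these data known.

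Nuclei were kept from 200 genes upward, where log UMIs and log genes lay no further than 3 median absolute deviations (scaled to the SD) from their library's median, with at most 10% mitochondrial UMIs, and clustered together with scanpy 1.11.5 (2000 variable genes, 30 components, 15 neighbours, Leiden resolution 0.5, igraph 0.11.9, Python 3.11.15). Clusters took names from at least 3 markers 1.5-fold higher there, and stayed unnamed where most nuclei were called doublets or where UMIs were few for the library and no marker was among the 10 leading genes, by a rule settled after the clusters were seen. Scrublet called 0 doublets in WT, where its threshold did not work, and 2391 in KO, and doublets were kept.

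UMIs were summed per class and library and scaled to 1000000 (CPM). In log2 ratios, counts under 3 were raised to 3, and genes with at least 50 UMIs over both groups were ranked. Shares were compared after thinning nuclei to 1000 UMIs. Intervals are exact Poisson or binomial (Clopper-Pearson), and the limit for a share of 0 is 3 counts of the total. Genes named are the 10, those beside or overlapping them, the listed genes, Srsf1 and the 5 of most similar profile. Values of 1 neighbouring gene are not reported here. Loci are from GENCODE M21 and promoters from RefSeq. The alternatives were no filter, fixed limits, removal of high doublet scores, other resolutions, the 10 genes and Slc7a10 kept out of the variable genes, each library on its own, means over nuclei, totals without mitochondrial genes, centring, subtraction of the endothelial level, other Slc7a10 limits and other thinning.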

Additional observations from a re-analysis of the deposited data

How the results depend on the processing

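All 10 transcripts, chosen on this difference in the same nuclei, were at least 8-fold higher in KO adipocytes under each of the 12 settings that recomputed the KO to WT ratios. Of 120 such values, 110 stayed within the counting interval of the reported one, 10 did not and 0 changed sign. Of 140 values of the Slc7a10 split over 14 settings, 121 stayed within it. The summed log2 ratio of KO to WT (5.78) was 5.35 at resolution 0.3, and 12.83 after subtraction of the endothelial level, where WT fell below 0 and was set to 3 counts. The thinned share with any transcript (53.5%) was 50.7% at resolution 0.3, 72.1% at 2000 UMIs and 50.5% with the Saxo1, Tnni1 and Tph2 cluster added, a setting added after the data had been seen, and the share with at least 2 (15.6%) was 13.9%, 36.2% and 13.8%. The summed Slc7a10 ratio (0.16) was 0.25 at resolution 0.3 and with each library clustered on its own, 0.06 after thinning to 3000 UMIs and 0.27 with that cluster added. With the endothelial level subtracted, 2 transcripts in place of 1 were at least 2-fold higher with Slc7a10, as Marc1 went to 1.05, and with fixed limits or means over nuclei 3 in place of 2 were at least 2-fold lower, as Gm47343 went to -1.24 and -1.07. The log2 ratio of KO endothelial to adipocyte nuclei (-2.25) was -2.40 with fixed limits, -3.22 without the top 10% of doublet scores, -3.10 at resolution 1.0, -2.60 with each library on its own and -2.85 as a mean over nuclei. The causes of these moves were not tested. No library could be left out, and no paired analysis was possible because each genotype had 1 library. Low WT counts limit the ratios of Gm38575, Gm47343, Gm12022 and Hsh2d to bounds or wide intervals.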
